A study of Mus musculus with 5 samples.

Results

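A set of 10 genes of epithelial antimicrobial and oxidative defence was examined in bulk RNA-seq of mouse colon spheroids, cultures of gut epithelial cells grown as hollow balls. The genes were chosen by name: the mucosal pentraxins Mptx1 and Mptx2, the lectins Reg3b and Reg3g, the lipocalin Lcn2, the phospholipase Pla2g2a, the lysozymes Lyz1 and Lyz2, and the oxidase Duox2 with its partner Duoxa2. All 10 were among the 32793 gene rows of the deposited tables. Libraries labelled NDD (2, titled RA) carried the dimer-deficient alleles Notch1DD and Notch2DD, and libraries labelled WT (3) were wild type. All 5 shared 1 mixed strain background, mostly C57Bl6 with some FVB. The labels give no age, sex, culture medium or exposure to microbes. They do not say whether the libraries came from separate animals or cultures, so the p-values measure only the spread between these libraries.

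The colon epithelium keeps microbes at a distance with secreted proteins that bind, starve or lyse bacteria, and with hydrogen peroxide made at the cell surface. In the gut, many of these proteins are made by Paneth and goblet cells or switched on in absorptive cells by microbial products and cytokines such as IL-22. Notch signalling, in which a cleaved receptor binds the DNA protein RBPJ, steers crypt cells towards the absorptive rather than the secretory fate.

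Total counts were 19192389 to 23064000 per library, and all 5 libraries had 16534 to 16824 genes with a count. A count of 0 allows up to 3 counts, which is 0.13 to 0.156 CPM (counts scaled to a library's total), and covers counting error only. Whether groups overlapped was read in CPM scaled by TMM factors as well (0.9659 to 1.023), which correct for differences in composition. Across genes, the Spearman correlation was 0.966 between the NDD libraries and 0.984 to 0.987 between WT libraries, with NDD 1 as near WT 1 (0.985) as the WT libraries were to each other and NDD 2 farthest from WT 3 (0.939). Colon epithelium markers summed to 13200 to 16700 TPM (transcript abundance scaled for length and to a fixed sum) in NDD and 13600 to 14900 in WT. In such bulk libraries, fewer cells of a type and less RNA per cell cannot be told apart.

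Mptx2 had counts in both NDD libraries and in none of the WT libraries, Pla2g2a and Duox2 were higher in both NDD libraries than in every WT library, and Mptx1, Lyz1 and Duoxa2 overlapped between the groups. Reg3b, Reg3g, Lcn2 and Lyz2 were at or near 0 and did not pass the filter on low counts, which leaves 6 tested genes. None of the 6 passed edgeR's quasi-likelihood test at a Benjamini-Hochberg adjusted p under 0.05, a threshold passed by 0.0889% of the 13501 genes tested (12 genes). At an unadjusted p under 0.05 the count was 3 (Mptx2, Pla2g2a and Duox2), and 11.2% of all genes tested were. DESeq2 called the same 3 and 2.64% of all genes. Mptx2 passed the filter on low counts through the NDD libraries alone, so its place among these counts was set by the filter, and nothing is read from them. With at least 10 counts required in every library, 4 members were tested and 1, Duox2, had an unadjusted p under 0.05. The groups of these 3 did not overlap and were higher in NDD, a pattern that 15.8% of all genes tested had, and 16.2% were lower in NDD without overlap. For a single gene, an exact two-sided permutation test of 2 against 3 libraries cannot give a p under 0.2, and it gave 0.2 for each of the 3.

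**Figure D1:**
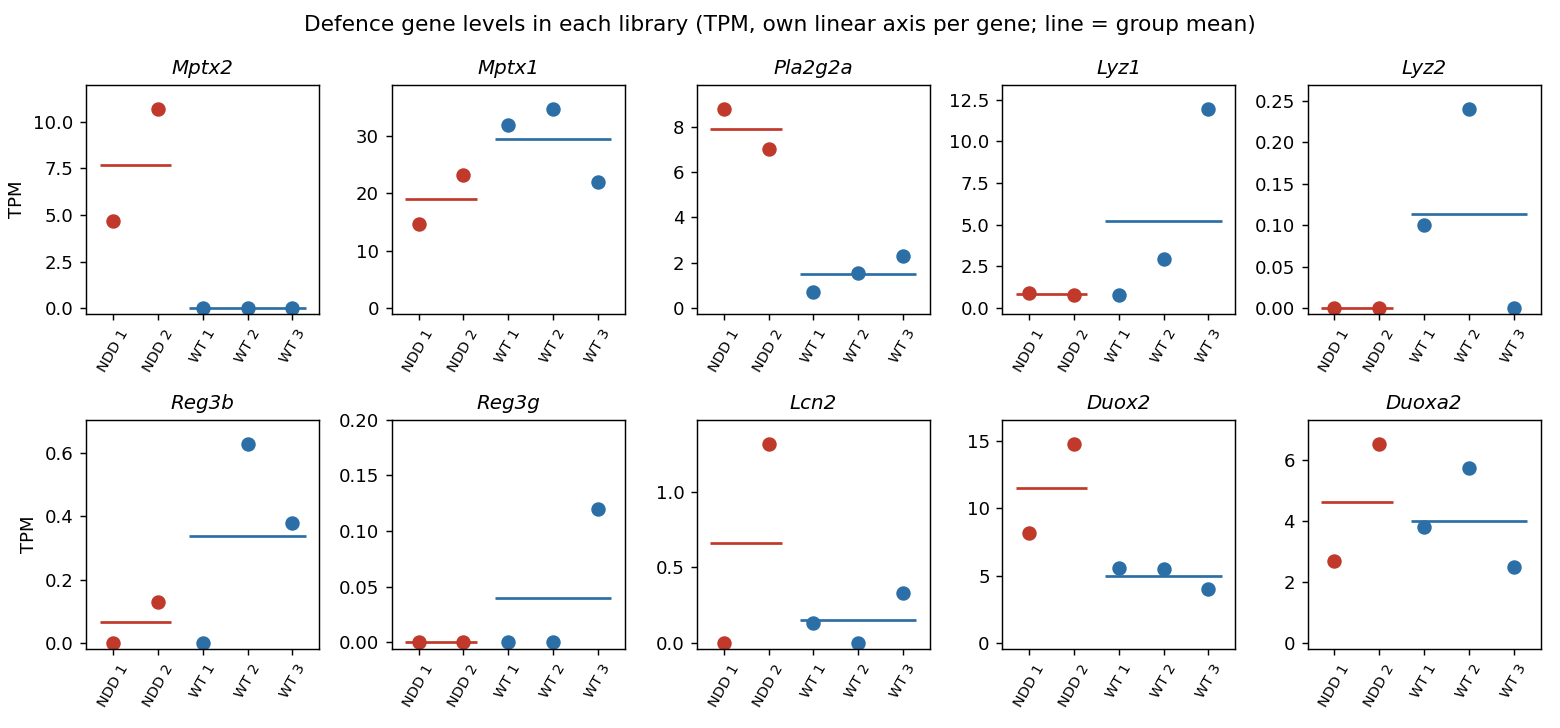
TPM (y axis, linear, its own scale for each gene) of the 10 defence genes in each library (x axis); points are libraries, NDD in red and WT in blue, and lines are group means. Mptx2 is at 0 in all 3 WT libraries, Pla2g2a and Duox2 are higher in both NDD libraries than in every WT library, and the Lyz1 mean in WT rests on WT 3 at 11.96 TPM.

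By length-scaled level, Mptx1 was the highest of the 10 in each library, with a mean of 25.3 ± 8.06 TPM (SD over all 5 libraries). Duox2 (7.58 TPM), Duoxa2 (4.25), Pla2g2a (4.06), Lyz1 (3.48) and Mptx2 (3.08) followed, and the ranges of these 5 over the libraries overlapped, so their order is not set by these data. Lcn2 (0.356), Reg3b (0.228), Lyz2 (0.068) and Reg3g (0.024) were the lowest. The 10 genes summed to 39.8 and 64.6 TPM in NDD and to 43, 51.3 and 43.6 TPM in WT, so the sums overlapped.

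Mptx1 and Mptx2 encode mucosal pentraxins, secreted proteins of the C-reactive protein family that bind bacterial surfaces. Mptx1 is known from goblet cells of the colon and Mptx2 from Paneth cells of the small intestine. The genes lie 1.05 Mb apart on chromosome 1 of GRCm38 (GENCODE M21), Mptx2 at chr1:173274382-173277777 on the minus strand and Mptx1 at chr1:174330518-174332873 on the plus strand. Because their reads could be confused, their coding sequences (GENCODE M21 transcripts) are shown. They matched at 91.9% of 657 bases with 53 mismatches, and 25.1% of the 31-base words of Mptx2 transcripts also occurred in Mptx1. The stretch of 75 bases that differed most, coding bases 550 to 624, held 13 differences, in capitals:
Mptx1: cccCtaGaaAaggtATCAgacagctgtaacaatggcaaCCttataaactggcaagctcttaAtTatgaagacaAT
Mptx2: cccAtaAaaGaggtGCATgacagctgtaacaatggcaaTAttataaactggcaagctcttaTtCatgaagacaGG
By contrast, bases 59 to 133 were the same in both:
Mptx1 and Mptx2: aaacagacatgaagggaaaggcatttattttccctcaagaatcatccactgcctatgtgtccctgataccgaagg
Reads from the second kind of stretch cannot be assigned to either gene by sequence, so the level of each is uncertain to that degree.

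Mptx2 had 31 counts in NDD 1 and 73 in NDD 2, and 0 counts in each of WT 1, WT 2 and WT 3. In TPM this was 4.68 and 10.7 in NDD and 0 in WT (NDD mean 7.69 ± 4.26, SD, n = 2). Both NDD libraries stood above every WT library, and NDD 2 stood above NDD 1. Against the limit of 3 counts per WT library, Mptx2 was at least 17.2-fold higher in NDD by the mean of both NDD libraries, which is 9.78-fold for NDD 1 alone and 24.7-fold for NDD 2 alone. Of all rows, 0.329% (108 genes) had at most 3 counts in every WT library and more than 3 in both NDD libraries, and 0.14% (46) had the opposite pattern. Mptx2 was the only one of the 10 defence genes with either pattern. In edgeR's quasi-likelihood test the Benjamini-Hochberg adjusted p was 0.178. It was 0.0403 with no filter on low counts and 9.96e-06 in DESeq2, and its highest value for Mptx2 itself was 0.388, without WT replicate 3. Mptx2 passed that filter through the NDD libraries alone, so nothing is read from the p-values of filtered fits.

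Mptx1 had 122 and 195 counts in NDD and 226, 300 and 187 in WT. Its mean was 19 ± 6.07 TPM in NDD (SD, n = 2) and 29.6 ± 6.65 TPM in WT (SD, n = 3). NDD 1 was below all WT libraries, while NDD 2 lay between WT 3 and WT 1. The log2 fold change of -0.60 had an SE of 0.34 and an edgeR adjusted p of 0.484, and leaving out single libraries gave -1.02 to -0.27.

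Because the pair shares sequence, the counts were also read as 1 pool. The summed counts were 153 and 268 in NDD and 226, 300 and 187 in WT, with overlap and a log2 fold change of -0.19 (edgeR adjusted p = 0.805). Within the sum, Mptx2 took 20.3% of the counts in NDD 1 (95% exact Clopper-Pearson interval 14.2 to 27.5) and 27.2% in NDD 2 (22 to 33). In WT it took 0 of 226, 0 of 300 and 0 of 187 counts, for which the same exact intervals reach 1.62%, 1.22% and 1.95%. The pool as a whole thus overlapped between the groups and the split between its members did not. These intervals cover counting error only, and RSEM assigns shared reads by estimate.

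The promoters of the pair are shown because only 1 of these near-copies had counts in every library. They cover 250 to 31 bases before the RefSeq start (GRCm38.p6), read 5′ to 3′ on each gene's strand, with capitals at bases that differ from, or are absent in, the other gene within the aligned part:
Mptx1, chr1:174330268-174330487, plus strand: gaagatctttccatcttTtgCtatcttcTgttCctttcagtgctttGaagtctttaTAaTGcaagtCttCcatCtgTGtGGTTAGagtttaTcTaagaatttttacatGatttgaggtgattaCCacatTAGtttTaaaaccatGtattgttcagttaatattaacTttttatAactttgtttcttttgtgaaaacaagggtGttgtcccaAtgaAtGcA
Mptx2, chr1:173277787-173278006, minus strand: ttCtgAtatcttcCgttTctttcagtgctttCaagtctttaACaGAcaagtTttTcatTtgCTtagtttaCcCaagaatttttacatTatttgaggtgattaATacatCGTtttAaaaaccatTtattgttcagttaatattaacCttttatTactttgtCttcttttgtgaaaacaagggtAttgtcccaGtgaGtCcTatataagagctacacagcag
Of 206 aligned columns, 168 held the same base (81.6%) and 7 held a gap. These are sequences of the reference strain.

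Short motifs were searched on both strands in the 250 bases before each start: TGGGAA, the core bound by RBPJ, TTCNNNGAA, bound by STAT proteins, and TTGCNNAA, bound by C/EBP proteins. RefSeq promoters were matched for 9 of the 10 genes (not for Pla2g2a). TGGGAA, present in 21.6% of 32851 promoters, occurred at 2 places in Reg3g and at 1 each in Lyz2 and Duox2. TTCNNNGAA (7% of promoters) occurred once in Reg3b, and TTGCNNAA (9.6%) once each in Lcn2 and Lyz1. These letters were not in the windows of Mptx1, Mptx2 or Duoxa2. A match is a description of letters and not a binding site.

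The genes between Mptx2 and Mptx1 were read library by library, a choice made after their values were seen. The tables hold 25 genes there, of which 14 were at 0 counts in all libraries, mostly olfactory receptor genes. Of these 25, 5 were tested: Aim2 and 4 interferon-inducible HIN-200 genes, a family of DNA sensors to which Aim2 also belongs. The 4 had at most 1 count in any WT library and passed the filter on low counts through NDD alone, so that they were higher in NDD among tested genes was set by the filter. Aim2, with counts in all libraries, was also higher in both NDD libraries than in every WT library. Aim2 had 1542 and 1317 counts in NDD and 851, 947 and 936 in WT (log2 fold change 0.62, SE 0.12, edgeR adjusted p = 0.215). For Ifi202b the counts were 390 and 236 in NDD against 1, 0 and 0 in WT, with an edgeR adjusted p of 0.0167. Ifi203 had 85 and 97 counts in NDD and 0, 1 and 0 in WT (edgeR adjusted p = 0.0428). Those 2 were the called genes. Without WT 1, WT 2 or WT 3 neither was called, with edgeR adjusted p from 0.084 to 0.156 for Ifi202b and from 0.192 to 0.248 for Ifi203. On log2(TPM + 1) and log2(TPM + 0.1), limma called Ifi202b (adjusted p = 0.0107 and 0.0307) but not Ifi203 (0.114 and 0.223). With no filter, limma on log2(TPM + 1) called both (adjusted p = 0.0264 and 0.0203).

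Ifi204 (29 and 54 counts in NDD) and Ifi211 (17 and 22) were at 0 in every WT library, as Mptx2 was, and did not pass the edgeR test (adjusted p = 0.169 and 0.207). In all, 5 of the 25 genes had at most 3 counts in every WT library and more than 3 in both NDD libraries, the fifth being Mndal, and 0 had the opposite pattern. Tested genes on either side did not do so: Igsf9, Tagln2 and Dusp23 before Mptx2, and Fh1, Opn3 and Chml after Mptx1, had counts in all 5 libraries. HIN-200 genes are close copies of each other, and how the authors' counting split their shared reads is not given in the sources used here, so the single values are uncertain. The labels give a mixed strain background with no composition for single libraries, so for Mptx2 and these neighbours genotype and strain at this interval cannot be told apart.

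**Figure D2:**
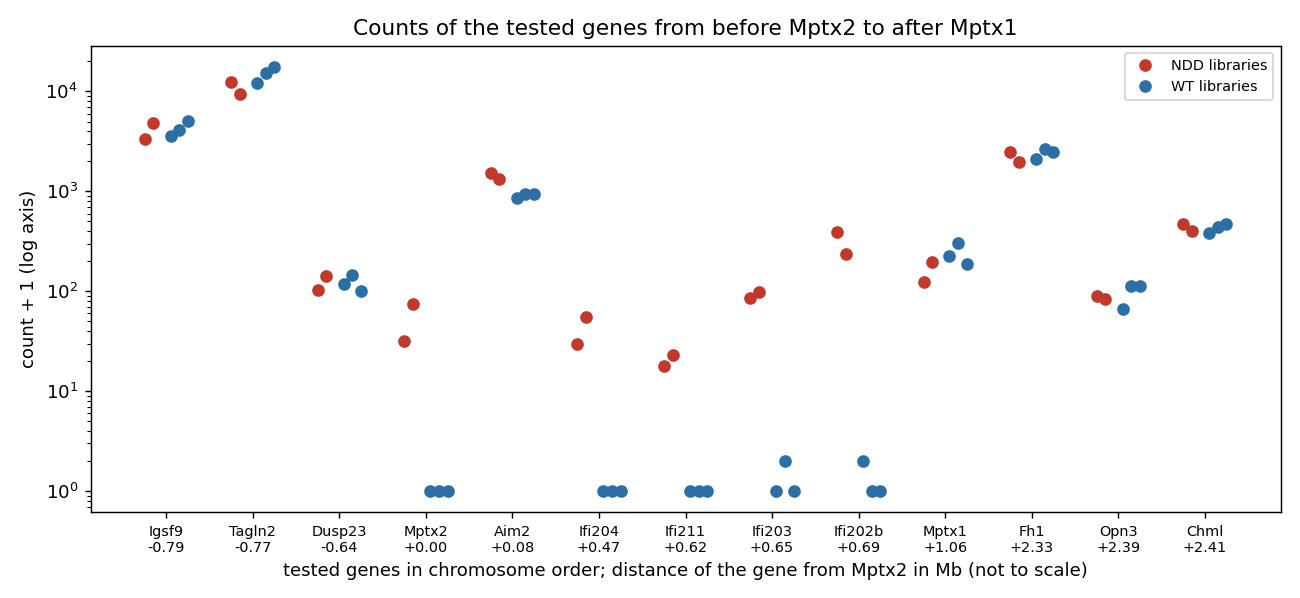
Counts plus 1 (y axis, log scale) in each library of the tested genes from before Mptx2 to after Mptx1 (x axis, chromosome order, distance from Mptx2 in Mb, not to scale); red points are NDD and blue points WT libraries, in replicate order. Mptx2, Ifi204, Ifi211, Ifi203 and Ifi202b lie at 0 or 1 count in the WT libraries, whereas Mptx1 and the genes outside the interval have counts in all 5.

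Pla2g2a encodes a secreted phospholipase that hydrolyses the membranes of Gram-positive bacteria and is made by Paneth cells. It lies at chr4:138831857-138835186 on the plus strand of GRCm38 and is annotated there as a polymorphic pseudogene in GENCODE M21 and as a transcribed pseudogene in RefSeq. C57BL/6 mice are known to carry a disrupted copy of this gene. It had 72 and 58 counts in NDD and 5, 13 and 19 in WT. The means were 7.9 ± 1.25 TPM in NDD (SD, n = 2) and 1.51 ± 0.78 TPM in WT (SD, n = 3), with no overlap. The log2 fold change was 2.39 (SE 0.51), and the edgeR adjusted p was 0.256. DESeq2 gave an adjusted p of 0.0109, and leaving out single libraries gave log2 fold changes of 2.07 to 2.79. The labels give no strain composition for single libraries, so for Pla2g2a too genotype and strain cannot be told apart.

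All 3330 bases of Pla2g2a lie under the gene model of Pla2g5, a related phospholipase, on the other strand. The kit kept strand, per the labels' protocols, but whether the counting used it is not given in the sources used here. Pla2g5 had 39 and 115 counts in NDD and 27, 87 and 29 in WT, so its groups overlapped, and its order over the libraries was not that of Pla2g2a. Read in mRNA sense, the transcripts of Pla2g2a and Pla2g5 shared no 31-base word. Opposite strands were not compared, so that value says nothing about reads from the overlap. The part of overlapping reads in the Pla2g2a result was not tested.

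Lyz1 and Lyz2 encode lysozymes, which cut the peptidoglycan of bacterial walls. Lyz1 is the form of Paneth cells and Lyz2 that of macrophages and other myeloid cells. They lie 5475 bases apart on chromosome 10 of GRCm38, Lyz1 at chr10:117287797-117292868 and Lyz2 at chr10:117277331-117282321, both on the minus strand. Their coding sequences matched at 95% of 444 bases, and 34.2% of the 31-base words of Lyz1 occurred in Lyz2. Since the genes had quite different counts, the stretch that tells them apart best (coding bases 58 to 132, GENCODE M21, 12 differences in capitals) is shown:
Lyz1: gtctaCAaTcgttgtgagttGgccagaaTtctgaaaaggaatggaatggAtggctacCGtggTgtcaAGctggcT
Lyz2: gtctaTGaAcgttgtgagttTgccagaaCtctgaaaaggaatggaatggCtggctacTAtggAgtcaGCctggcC

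Lyz1 had 13 and 12 counts in NDD and 10, 45 and 180 in WT. NDD was at 0.845 ± 0.0495 TPM (SD, n = 2) and WT at 5.23 ± 5.93 TPM (SD, n = 3). WT 3 was far above the rest and WT 1 was below both NDD libraries, so the groups overlapped. The log2 fold change of -2.59 had an SE of 1.13 and an edgeR adjusted p of 0.46, and it became -1.15 without WT replicate 3. Mmp7, a matrix protease that Paneth cells use to activate defensins, also had its highest count in WT 3 (7 and 19 counts in NDD, 67, 49 and 304 in WT), and both NDD libraries were below every WT library. The other Paneth markers named here did not share that order: Itln1 and Pla2g2a had higher counts in both NDD libraries than in every WT library, and Ang4 overlapped. The part of Paneth markers in the Lyz1 values was not tested. Lyz2 had 0 and 0 counts in NDD and 1, 3 and 0 in WT, which is at or under the limit of 3 counts in every library.

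Markers of myeloid cells bear on Lyz2 and Lcn2. Of 12 such genes, 5 had at most 3 counts in every library, among them the leukocyte genes Ptprc, Adgre1 and Fcer1g, and Tyrobp and Mpo were at 0 in all 5. Of the 12, 6 were tested and none passed the edgeR or the DESeq2 test. At an unadjusted edgeR p under 0.05 there was 1 (11.2% of all genes tested were). The 6 had 1 positive and 5 negative log2 fold changes. Their median was -0.66, against 0 over all genes tested, and it was -0.272 without NDD 1 or -1.07 without NDD 2. Of the 6, 2 lay below WT without overlap (16.2% of all genes tested did). The 12 genes summed to 379 to 565 TPM in NDD and 533 to 688 TPM in WT, carried mainly by Ly6g and Cd14.

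Reg3b and Reg3g encode C-type lectins that kill bacteria at the gut surface, with Reg3g directed at Gram-positive species. They lie 92802 bases apart at chr6:78370657-78373466 (plus strand) and chr6:78466269-78468872 (minus strand) of GRCm38. Reg3b had 0 and 1 counts in NDD and 0, 5 and 3 in WT. Reg3g had a single count, in WT 3. Reg3b therefore passed 3 counts in WT 2 alone and Reg3g in no library, and a difference was not detectable at this depth. Their coding sequences matched at 76% of aligned bases, and 0.45% of the 31-base words of Reg3b transcripts occurred in Reg3g.

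Lcn2 encodes lipocalin 2, which starves bacteria of iron by binding their siderophores, and lies at chr2:32384633-32388252 on the minus strand of GRCm38. It had 0 and 12 counts in NDD and 1, 0 and 3 in WT. Only NDD 2 exceeded 3 counts, at 1.32 TPM, and NDD 1 was at 0, the same as WT 2, so the groups overlapped. The gene was below the filter and was not tested.

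Duox2 encodes a dual oxidase that releases hydrogen peroxide at the apical face of gut epithelium, and Duoxa2 the maturation factor that carries it out of the endoplasmic reticulum. The genes lie head to head on chromosome 2 of GRCm38, Duox2 at chr2:122279247-122298449 on the minus strand and Duoxa2 at chr2:122298900-122302885 on the plus strand, with 450 bases between them. Duox2 had 460 and 881 counts in NDD and 268, 323 and 245 in WT. Its mean was 11.5 ± 4.72 TPM in NDD (SD, n = 2) and 4.99 ± 0.884 TPM in WT (SD, n = 3). Both NDD libraries were above every WT library, and NDD 2 was well above NDD 1.

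The Duox2 log2 fold change was 1.25 (SE 0.32), with an edgeR adjusted p of 0.334, and DESeq2 gave an adjusted p of 0.0225. It rested on NDD 2 in size: without NDD replicate 2 the log2 fold change was 0.66, and without NDD replicate 1 it was 1.68. Krt20, a keratin of mature colonocytes named after its values were seen, had a like order, with 1373 and 2787 counts in NDD and 677, 804 and 115 in WT. Its log2 fold change was 1.93, against a median of 0.17 over the 11 colon epithelium markers. Of the 11, 6 lay above WT without overlap in TMM-scaled CPM, Krt20 among them (15.8% of all genes tested did). In TPM, Cdx1, Cdh1 and Vil1 of those 6 overlapped. Car1 (log2 fold change 0.46, NDD 1 above NDD 2), Krt19 (-0.09) and Krt18 (-0.14) overlapped. The part of Krt20 in the Duox2 result was not tested. Duox2 shared 10.3% of its 31-base words with Duox1, which had at most 11 counts in any library.

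Duoxa2 had 52 and 127 counts in NDD and 63, 115 and 49 in WT. It was at 4.62 ± 2.72 TPM in NDD (SD, n = 2) and 4.01 ± 1.63 TPM in WT (SD, n = 3). The NDD libraries lay on both sides of WT 1, and the groups overlapped. With an SE of 0.54, the log2 fold change of 0.24 (edgeR adjusted p = 0.84) turned to -0.60 without NDD replicate 2 and to -0.02 without WT replicate 3. Duoxa2 overlaps Duoxa1, which is on the other strand, by 695 bases, and Duoxa1 had at most 3 counts.

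**Figure D3:**
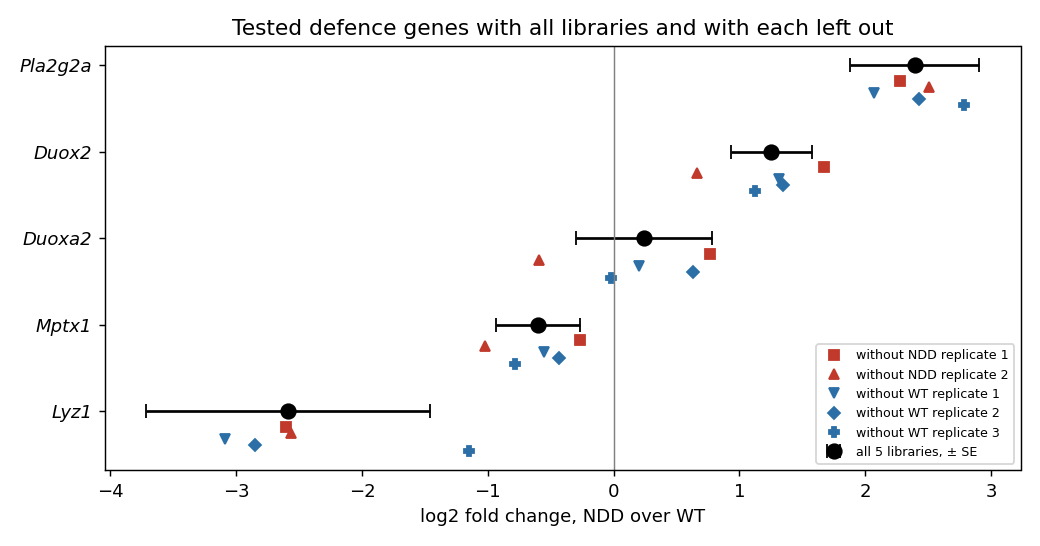
Log2 fold change, NDD over WT (x axis), of 5 of the 6 tested defence genes (y axis); black points with bars are edgeR values ± SE from all 5 libraries and coloured symbols the values with 1 library left out. Pla2g2a, Duox2, Mptx1 and Lyz1 keep their sign in every leave-out and Duoxa2 does not; Mptx2 is left out because all WT libraries are at 0.

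Over the 5 libraries, the members moved in different ways. The Pearson correlation of log2 CPM was 0.95 between Mptx2 and Duox2, 0.9 between Mptx2 and Pla2g2a, 0.61 between Duox2 and Duoxa2 and -0.49 between Mptx1 and Mptx2. With 5 points that share the 2 groups, these values only describe the libraries. Of 10407 well-expressed genes, 475 reached a correlation of at least 0.95 with Duox2, 177 with Mptx2, 127 with Duoxa2, 93 with Lyz1, 64 with Pla2g2a and 25 with Mptx1. The 3 most like Mptx2 were Mrps6, Dnajc14 and Zer1 (0.998 to 0.999), and those most like Duox2 were Spg7, Lonrf1 and Tmem167b (each 0.999). Those most like Mptx1 were Ndufs8, Eml4 and Slc44a3 (0.989 to 0.992), and Bach1 and Tmem87a were most like Pla2g2a (each 0.997). Calu, Zmat3 and Sec22a were most like Lyz1 (0.997 to 0.998), and Gys1, Idh3g and Gdi2 most like Duoxa2 (0.997 to 1).

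A wider list of antimicrobial genes of the gut was then counted. It also holds genes that are not themselves antimicrobial, such as Il18, Pigr, Nlrp6 and S100g. Of 45, 13 were at 0 counts in all libraries and 23 were tested, of which 18 had a positive and 5 a negative log2 fold change. The median was 0.55, against 0 over all genes tested, where 6686 were positive and 6815 negative. Of the 23, 6 were higher in both NDD libraries than in every WT library in TMM-scaled CPM (15.8% of all genes tested were) and 0 were lower in that way. Of the 6, Il18 overlapped in TPM. Over the alternatives the median was 0.191 to 0.57, and leaving out NDD 1, NDD 2 or WT 3 lowered it to 0.272, 0.256 and 0.335.

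Retnlb, 1 of the 23, passed the edgeR test. Retnlb encodes resistin-like molecule beta, a goblet cell protein that kills Gram-negative bacteria. It had 333 and 216 counts in NDD and 1, 2 and 0 in WT, at least 89-fold higher in NDD (edgeR adjusted p = 0.0197). The call was lost without WT 1 (edgeR adjusted p = 0.157), WT 2 (0.109) or WT 3 (0.0563), and the gene was not tested where 10 counts were required in every library. Like Mptx2, it passed the filter on low counts through NDD alone. DESeq2 called Itln1 and Lypd8 as well as Retnlb (2.64% of all genes tested were). Lypd8, a protein that binds flagella and holds bacteria off the colon surface, was at 6560 ± 479 TPM in NDD (n = 2) and 3260 ± 1150 in WT (n = 3, SD), without overlap (log2 fold change 1.08, SE 0.33, edgeR adjusted p = 0.402). Sprr2a1 (log2 fold change 0.40, SE 0.39) and Pglyrp1, a peptidoglycan recognition protein (-0.07), overlapped between the groups. Named after their values were seen, the intelectin Itln1 had 114 and 94 counts in NDD and 20, 22 and 17 in WT (log2 fold change 2.36, SE 0.34, edgeR adjusted p = 0.104), and the serum amyloid Saa1 had 394 and 637 in NDD and 195, 218 and 40 in WT (edgeR adjusted p = 0.437).

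**Figure D4:**
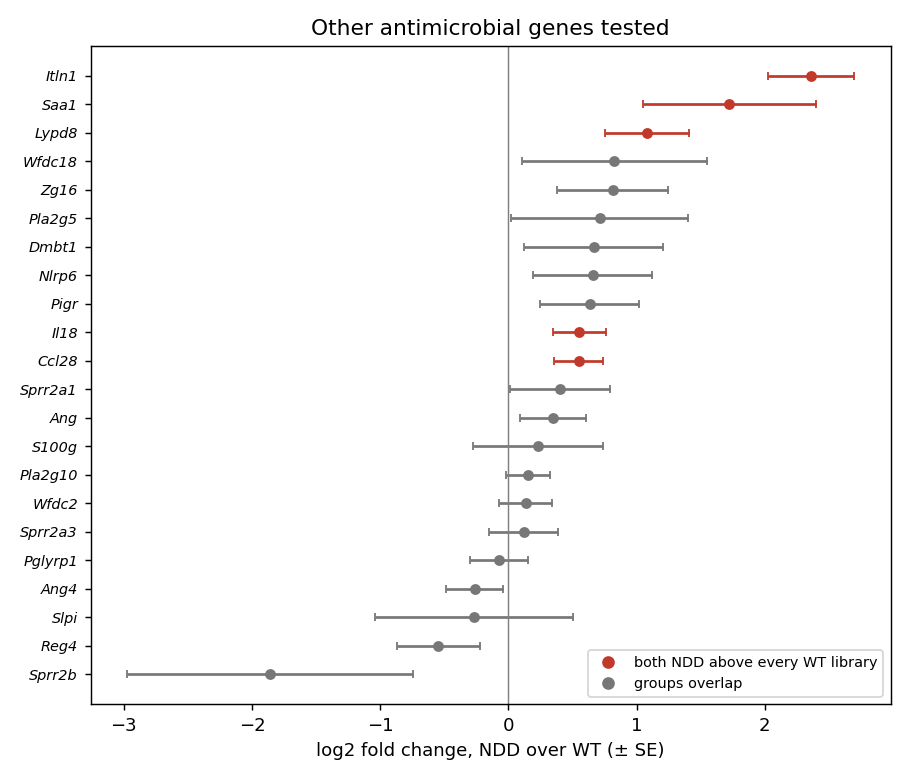
Log2 fold change, NDD over WT, with SE (x axis) of 22 tested genes of the wider antimicrobial list (y axis). Red marks genes whose NDD libraries are both above every WT library in TMM-scaled CPM. Retnlb, the called gene, is left out because its WT libraries are at or under 3 counts; Itln1, Saa1, Lypd8, Il18 and Ccl28 are the red genes, and none of the 22 passed the edgeR test.

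Markers of goblet, Paneth and other cells were read beside these. All 8 goblet markers had a positive log2 fold change, and 3 did not overlap and were higher in NDD (15.8% of all genes tested were). EdgeR called 1 of these, Retnlb, which passed the filter through NDD alone, with the leave-outs given above. The goblet median was 0.47 and ran from 0.241 to 0.815 with 1 library left out, and the sum was 2510 to 2590 TPM in NDD and 1690 to 2120 TPM in WT. The other goblet genes named were Tff3 (log2 fold change 0.14), Agr2 (0.53, no overlap) and Spink4 (0.40). Of 12 Paneth markers, which include Mptx2, Pla2g2a and Lyz1, 5 were at 0 counts in all libraries, all of them defensins, and Defa24 had 1 count, in WT 3. Of the 12, 6 were tested and edgeR called none, with 4 at an unadjusted p under 0.05 (11.2% of all genes tested were). DESeq2 called 4 (2.64% of all genes tested were), namely Itln1, Mptx2 and Pla2g2a, with positive values, and Mmp7, with a negative one. Mptx2 passed the filter on low counts through NDD alone. EdgeR with no filter called Mptx2 alone. The list had sums of 74.6 to 99.1 TPM in NDD and 75.1 to 114 TPM in WT, which overlapped. Ang4 was 61.4 ± 19.8 TPM in NDD and 74.9 ± 10.6 in WT (n = 2 and 3, SD). Of 11 colon epithelium markers, 9 had a positive log2 fold change (median 0.17). In TMM-scaled CPM, 6 lay above WT without overlap (15.8% of all genes tested did), of which Cdx1, Cdh1 and Vil1 overlapped in TPM. Neither edgeR nor DESeq2 called any of the 11, with 1 at an unadjusted edgeR p under 0.05 (11.2% of all genes tested were). Fibroblast markers (2 of 8 tested) summed to 3.95 to 8.88 TPM in NDD and 1.8 to 4.33 TPM in WT. EdgeR called neither, and DESeq2 called 1 (2.64% of all genes tested were), the mesenchymal receptor Pdgfrb, named after its values were seen. Pdgfrb had 188 and 552 counts in NDD and 122, 102 and 80 in WT, and made 2.98 and 8.17 TPM of the NDD sums. The other tested gene, Vim, had 17 and 13 counts in NDD and 37, 31 and 14 in WT, with overlap (log2 fold change -0.92). The log2 fold change of Vwf, the tested endothelium marker, was 0.86, and it was 1.55 without NDD 1 and -0.497 without NDD 2. Endothelium markers (1 of 6 tested) summed to at most 2.96 TPM in any library. The part of any of these cell types in the results for the 10 genes was not tested.

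Of 19 other oxidase genes, 11 were tested. None was called by edgeR, with 2 at an unadjusted p under 0.05 (11.2% of all genes tested were). DESeq2 called 1, Lpo (2.64% of all genes tested were). The list had 6 positive and 5 negative log2 fold changes (median 0.01, 0.347 without NDD 1 and -0.164 without NDD 2). Lpo, a peroxidase that uses hydrogen peroxide against bacteria, was at 209 ± 12 TPM in NDD and 104 ± 28.7 in WT (n = 2 and 3, SD; log2 fold change 1.03, SE 0.24, edgeR adjusted p = 0.293), without overlap. Aoc1, a diamine oxidase that releases hydrogen peroxide, was at 181 ± 6.36 and 131 ± 13.5 TPM, also without overlap (edgeR adjusted p = 0.385). Rac1 (log2 fold change -0.01) and Cyba (-0.39), partners of the NADPH oxidases, overlapped.

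The listed antioxidant genes were all tested (25) and none was called by edgeR or DESeq2 or had an unadjusted edgeR p under 0.05. There were 10 positive and 15 negative values. Their median was -0.07, and it was -0.186 without NDD 1 and 0.023 without NDD 2, the ends of its range over the alternatives. Gpx2, the glutathione peroxidase of gut epithelium, was at 2700 ± 1600 TPM in NDD and 4460 ± 1040 in WT (n = 2 and 3, SD; log2 fold change -0.71, SE 0.37, edgeR adjusted p = 0.478), with groups that overlapped in TPM and in CPM without TMM factors, but not with them. The next by level, Txn1 (log2 fold change -0.21), Prdx6 (0.31) and Prdx1 (-0.29), overlapped. Of 43 receptors and regulators known to induce defence genes, 42 were tested and edgeR called none. At an unadjusted p under 0.05 there were 6 (11.2% of all genes tested were). The median was 0.06 (-0.012 to 0.194 over the alternatives), and 6 lay above and 6 below WT without overlap, where 15.8% and 16.2% of all genes tested did. Those of highest level, Elf3 (0.06), Hnf4a (0.22), Atf4 (0.23) and Nfkbia (-0.09, log2 fold changes), overlapped between the groups. DESeq2, limma-voom, edgeR with no filter and edgeR with the replicate block each called 1, Il1rn, which encodes the antagonist of the interleukin 1 receptor. Over all genes, DESeq2 called 357 of 13501 (2.64%), limma-voom 24 of 13501, edgeR with no filter 58 of 19182 and the block 33 of 13501. Without WT 1, WT 2 or WT 3, edgeR did not call Il1rn (adjusted p = 0.229 to 0.342). Its log2 fold change was -1.369 without NDD 1 and -1.142 without NDD 2. Il1rn, named after its values were seen, had 2730 and 2209 counts in NDD and 5556, 6079 and 5667 in WT, without overlap. Its log2 fold change was -1.26, with an SE of 0.14 and an edgeR adjusted p of 0.062.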

How the data were processed

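The 5 colon spheroid libraries were made with an mRNA kit that keeps strand, per the labels' protocols, and were grouped as NDD or WT by the genotype label. The authors deposited estimated counts per gene as whole numbers with no normalization, and a second table of TPM, scaled for length and to a fixed sum per library. Bowtie2, RSEM and mm10 are named per the submitters' processing notes. Versions, annotation, strand setting and treatment of reads that match several genes are not given in the sources used here. RSEM is known to assign such reads by estimate, and the tables were joined by gene name.

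Counts of all 5 libraries were tested with edgeR 4.0.16 (quasi-likelihood, robust prior, TMM factors, filterByExpr, R 4.3.3) over 13501 genes, with Benjamini-Hochberg adjustment and a threshold of 0.05. Log2 fold changes are on the scale of fitted counts, NDD over WT, and their SE was taken as the size of the value over the square root of F. Group overlap was read in CPM. Alternatives were DESeq2 1.42.0, limma 3.58.1 on counts (voom) and on log2(TPM + 1) or log2(TPM + 0.1), other scalings, other filters (none, or 10 counts in every library), a prior count of 2, a threshold of 0.10, sums over paralogs, CPM in place of TPM, a block on the replicate number, and leaving out each library. With 1 NDD library left, it is assumed to vary like the others. The procedure was tested on simulated data.

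The 10 genes were taken by name. Of each other gene list up to 4 genes are named, those called and then those of highest mean TPM. Other genes of these lists that the text names were chosen after their values were seen. The genes most like each tested member are the 3 of highest Pearson correlation of log2 CPM, among genes with a mean of at least 2. A gene that this rule names is not reported here. The members and lists were chosen with earlier results of these data known. Coordinates and coding sequences come from GENCODE M21 and promoters from RefSeq GRCm38.p6, the build that mm10 names.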

Additional observations from a re-analysis of the deposited data

How the results depend on the processing

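The count of called genes (12) became 58 with no filter, 4 with at least 10 counts in every library, 357 in DESeq2, 24 in limma-voom, and 33 at a threshold of 0.10, and was 0 to 1207 with 1 library left out. It was 0 without WT replicate 1, where 1211 genes had an unadjusted p under 0.05 in edgeR, and 1207 without NDD replicate 1, which leaves NDD replicate 2 alone. With other scalings, a non-robust prior or limma on TPM it stayed within 1.5 times the 12. The count of called defence genes (0) became 1 with no filter (Mptx2) and 3 in DESeq2 (Mptx2, Pla2g2a and Duox2), and was 0 to 2 with 1 library left out. The Mptx2 value turned to -0.19 when its counts were summed with those of Mptx1. The Duoxa2 value turned to -0.13 with the replicate block and was -0.60 to 0.77 with 1 library left out. The replicate numbers share only a number, not a stated animal or day. Deviations from the group means correlated at -0.01 between the libraries numbered 1 and at 0.353 between those numbered 2, and the block called 33 genes and none of the 10. Of the 109 log2 fold changes of members under alternatives, 99 kept both their direction and their side of the threshold. With 2 NDD libraries, values under about 3 counts (Reg3b, Reg3g, Lyz2 and most of Lcn2) are limited by depth.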

Other observations

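The ratio of Duoxa2 to Duox2 in TPM, formed after their values were seen, was 0.331 and 0.442 in NDD and 0.688, 1.05 and 0.627 in WT (means 0.386 ± 0.0785 and 0.789 ± 0.229, SD). Both NDD ratios were below every WT ratio, and an exact two-sided permutation test gave p = 0.2, the smallest p that 2 against 3 libraries allow. The ratio rests on TPM values that also hold the uncertainty of sequence shared between Duox2 and Duox1.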
